A study of Homo sapiens with 4 samples.

Results

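Ribosome biogenesis factors were followed in 2 human lines of multiple myeloma, the malignancy of antibody-making plasma cells, with cells taken before and after a microfluidic sorting chip. The 46 genes encode proteins that transcribe ribosomal RNA, modify and cut it, and fold it with ribosomal proteins into the 2 subunits. They were chosen by name, as the rows with these gene names in both deposited tables, and all 46 were found among the 60612 genes of each table. There were 4 libraries, with 1 for each group: H929 labelled after sorting, H929 labelled before sorting, KMS28BM labelled after sorting and KMS28BM labelled before sorting. H929 and KMS28BM are long-established cell lines, and the labels give no treatment or genetic change. The title of the series reads as if the libraries labelled after sorting were those of unsorted cells. The sample labels are followed here. If the title held instead, each direction between after and before sorting below would be the opposite.

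Ribosomes are built mainly in the nucleolus. RNA polymerase I makes a long precursor, small nucleolar ribonucleoproteins of the box C/D and box H/ACA classes guide its methylation and pseudouridylation, and a large assembly called the small subunit processome folds and cuts its first part. Other factors mature the large subunit and carry both subunits to the cytoplasm. Plasma cells make large amounts of antibody, and myeloma cells keep a high rate of protein synthesis.

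Levels are in FPKM, which divides fragment numbers by gene length and by depth, so that levels of different genes can be ordered within a library. Depth was estimated at 22.8 M fragments after and 24.8 M before sorting in H929, and at 23.4 M after and 21.2 M before in KMS28BM. At these depths 1 FPKM on a transcript of 2000 bases stands for between 42.4 and 49.7 fragments. All 9 markers of plasma cells and myeloma on a list written from background knowledge were at 1 FPKM or more in each library, with summed levels of 534 FPKM after and 955 FPKM before sorting in H929 and of 606 FPKM after and 594 FPKM before in KMS28BM. Of the 21 markers of other blood and stromal cells, 1 marker of T and NK cells reached 1 FPKM, in the H929 library after sorting. The part that these marker levels had in any result was not tested. With bulk RNA, fewer cells of a type and less RNA per cell cannot be told apart.

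Ratios below are log2 of FPKM plus 1, after over before sorting, which understates the change of low genes, and a gene counts as measured in a line at 1 FPKM or more in either of its libraries. With 1 library in each group, no ratio within a line has a replicate check and none carries a p-value. Of the 46 members 45 were measured in both lines. The exception was UTP20, a large scaffold of the processome, at 0.323 FPKM after and 0.758 FPKM before sorting in H929 and 0.338 FPKM after and 0.0625 FPKM before sorting in KMS28BM, which stands for about 67 fragments after and 170 before in H929 and 71 after and 12 before in KMS28BM.

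The members were well expressed in every library. Their median level was 18.6 FPKM after and 14.3 FPKM before sorting in H929, and 19.5 FPKM after and 12.9 FPKM before in KMS28BM, against medians between 5.08 and 5.48 FPKM over the genes at 1 FPKM or more. Between 34 and 38 of the 46 stood above the library's own median. Summed over all members, levels were 1437 FPKM after and 1100.1 FPKM before sorting in H929, or 0.430% after and 0.332% before of all FPKM. In KMS28BM the sums were 1869 FPKM after and 1712 FPKM before, or 0.541% after and 0.471% before. Of these KMS28BM sums, 4 abundant nucleolar proteins made up 483 FPKM after and 236 FPKM before. The box C/D proteins there summed to 315 FPKM after and 387 FPKM before, and the box H/ACA proteins to 453 FPKM after and 489 FPKM before. The sums of the remaining roles went both ways.

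**Figure D1:**
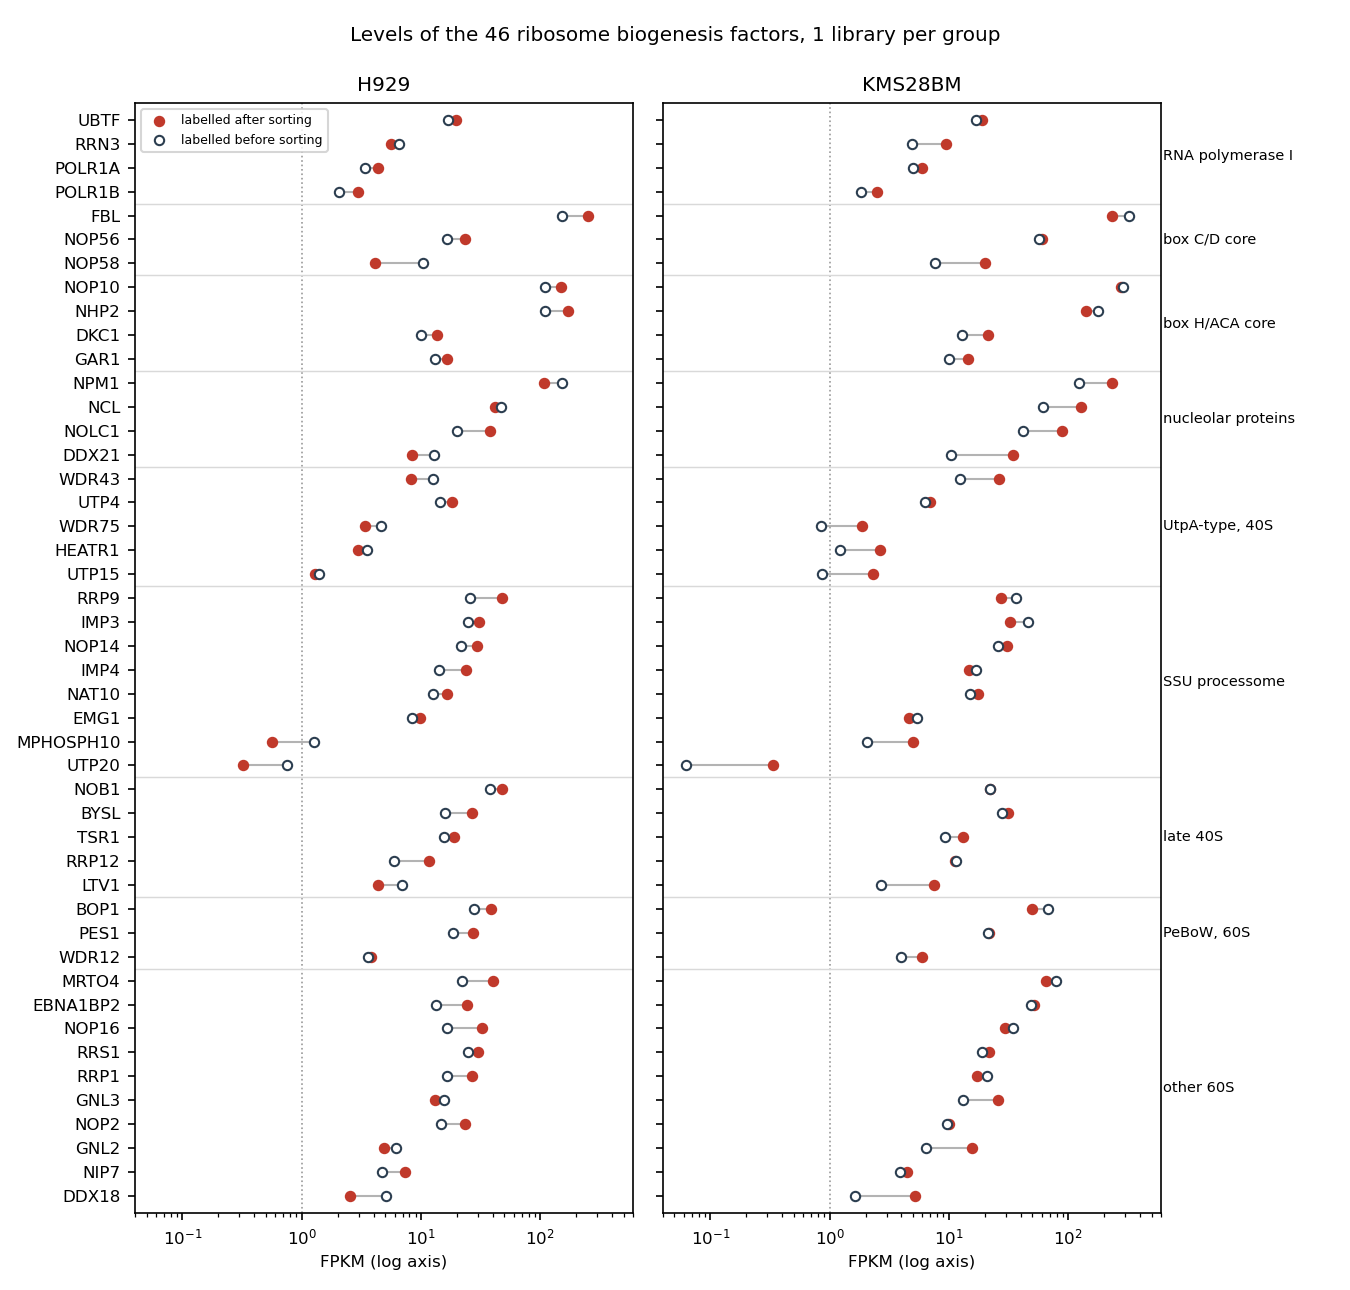
Level of each of the 46 factors in H929 (left panel) and KMS28BM (right panel), in FPKM on a log axis, with filled points for the library labelled after sorting and open points for the library labelled before sorting; the dotted line marks 1 FPKM and grey lines separate the roles. FBL, NOP10, NPM1 and NHP2 stand at the high end and UTP20 at the low end of both panels, and the order of the 2 points is opposite between the panels for genes such as NOP58, FBL and DDX21.

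In H929, 31 of the 45 measured members had a ratio above 0, with a median of 0.33, and 1 member, NOP58, was 2-fold or more lower. The share of all 11083 measured genes with a ratio above 0 was 41.7%, their median was -0.11, and 5.17% were 2-fold or more lower. No member was 2-fold or more higher, against 1.59% of all genes, and the highest were NOP16 at 0.94, NOLC1 at 0.89 and RRP12 at 0.87. In KMS28BM, 33 of 45 had a ratio above 0, with a median of 0.21, beside 59.4% and a median of 0.12 over 10472 genes. There 8 members were 2-fold or more higher, against 4.13% of all genes: DDX21, NOP58, DDX18, LTV1, GNL2, NOLC1, NCL and WDR43. No member was 2-fold or more lower there, against 1.12% of all genes. The KMS28BM median depends on scaling, since scaling by a trimmed mean shifted all KMS28BM genes by a median of -0.19 and put the members at -0.015 with 22 of 45 above 0.

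The lines ordered the members differently. Of the 45 members 14 had a ratio above 0 in KMS28BM and below 0 in H929, against 41.6% of all 9261 genes measured in both lines. The opposite held for 12 members, against 27.4% of genes. The other 19 members had ratios above 0 in both lines, against 17.2% of genes, and 0 had ratios below 0 in both, against 13.7%. With the trimmed-mean scaling 13 were above 0 in both lines, against 16.6% of genes. Across the 45 members the ratios of the 2 lines had a Spearman rho of -0.74 and a Pearson r of -0.80. Across 8064 protein-coding genes rho was -0.57 and r was -0.49. These are descriptions, since the genes of a line share its 2 libraries. With both lines fitted together in limma, line and sorting as terms, 0 of 45 members passed an adjusted p of 0.05, beside 0.0488% of 12294 genes that rose and 0.0651% that fell. At an unadjusted p under 0.05, 1 member was higher, against 0.724% of genes, and 0 were lower, against 0.773%. That member was NOLC1, with a shared log2 difference of 0.99 (SE 0.39, adjusted p = 1.0, limma) and a higher level after sorting in both lines.

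**Figure D2:**
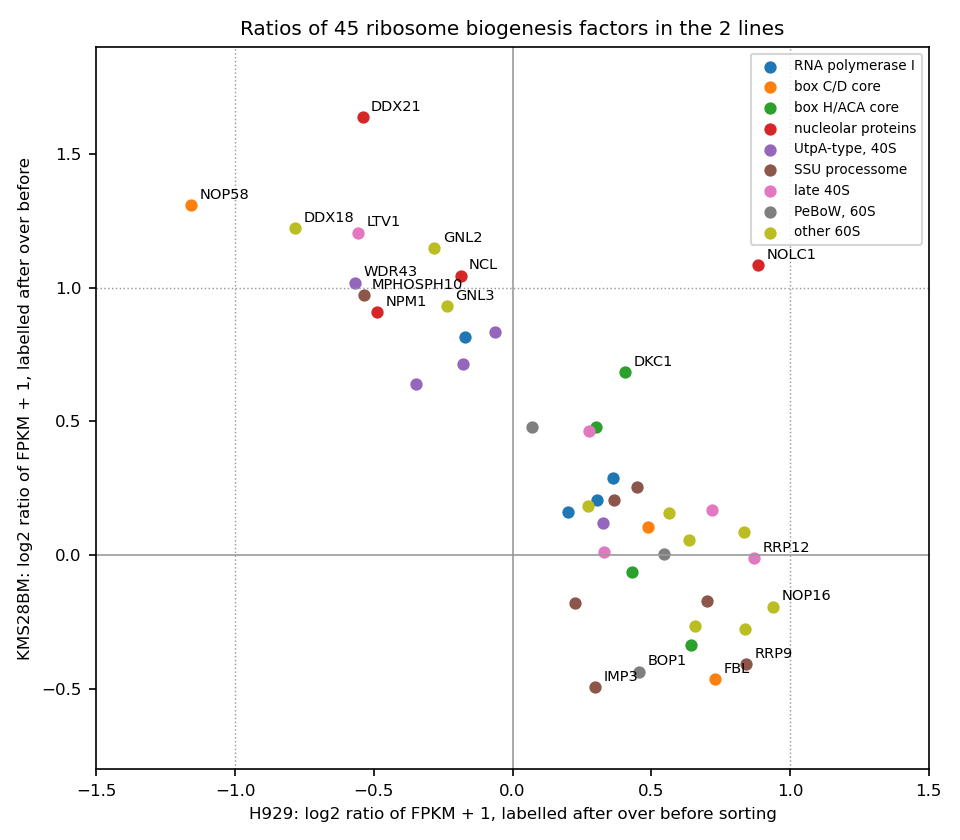
Log2 ratio of FPKM plus 1, after over before sorting, for the 45 measured members, with H929 on the horizontal and KMS28BM on the vertical axis; each point is a gene coloured by role and dotted lines mark 2-fold. Points run from NOP58, DDX18 and DDX21 at the upper left to FBL, RRP9 and IMP3 at the lower right, NOLC1 stands apart at the upper right, and no point has both ratios below 0.

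In the transcription machinery of ribosomal RNA, 3 of the 4 members had small ratios and RRN3 had a larger one in KMS28BM. UBTF (ENSG00000108312), the factor that opens ribosomal DNA and recruits the polymerase, was at 19.7 FPKM after and 16.97 FPKM before sorting in H929 and 18.8 FPKM after and 16.7 FPKM before sorting in KMS28BM. POLR1A, the catalytic largest subunit of RNA polymerase I, was at 4.39 FPKM after and 3.36 FPKM before sorting in H929 and 5.92 FPKM after and 4.997 FPKM before sorting in KMS28BM. POLR1B, the other large subunit, was at 2.95 FPKM after and 2.07 FPKM before sorting in H929 and 2.48 FPKM after and 1.85 FPKM before sorting in KMS28BM. Each of these 3 stood slightly higher after sorting in both lines, by ratios between 0.16 and 0.36. RRN3, which links the polymerase to its promoter factors and answers to growth signals, was at 5.64 FPKM after and 6.48 FPKM before sorting in H929 and 9.45 FPKM after and 4.95 FPKM before sorting in KMS28BM, ratios of -0.17 in H929 and 0.81 in KMS28BM. RRN3 shares 24.95% of its 50-base words with other genes, foremost the pseudogene RRN3P2, which stayed under 1 FPKM in all libraries.

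Within the box C/D particle, which carries the guide RNAs for methylation, the core proteins went different ways. FBL (ENSG00000105202), fibrillarin, the methyltransferase itself, was the most abundant member by its mean level. It stood at 252 FPKM after and 152 FPKM before sorting in H929, a ratio of 0.73, and at 234 FPKM after and 323 FPKM before sorting in KMS28BM, a ratio of -0.46. NOP56, a scaffold of the particle, was at 23.4 FPKM after and 16.4 FPKM before sorting in H929 and 60.7 FPKM after and 56.4 FPKM before sorting in KMS28BM, with ratios of 0.49 in H929 and 0.11 in KMS28BM. NOP58 (ENSG00000055044), the paired scaffold, had the opposite order in the 2 lines. It was at 4.08 FPKM after and 10.3 FPKM before sorting in H929, a ratio of -1.16, and at 20.2 FPKM after and 7.57 FPKM before sorting in KMS28BM, a ratio of 1.31. The level of NOP58 was 0.175 of that of NOP56 after and 0.631 of it before sorting in H929, and 0.333 of it after and 0.134 of it before in KMS28BM.

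The 3 transcripts also differ in base composition, which tracked the ratios of all genes in both lines, as described further on. GC content is 57.9% in FBL, 56.0% in NOP56 and 41.3% in NOP58, in the longest protein-coding transcript of the GENCODE release 29 annotation. The first 150 coding bases of that transcript are shown for each to make that difference visible, with DDX21, the member with the highest KMS28BM ratio and a GC content of 41.1%, beside them. Capitals mark runs of 4 or more G or C. FBL lies on chromosome 19 (minus strand), NOP56 on chromosome 20 (plus), NOP58 on chromosome 2 (plus) and DDX21 on chromosome 10 (plus).
FBL: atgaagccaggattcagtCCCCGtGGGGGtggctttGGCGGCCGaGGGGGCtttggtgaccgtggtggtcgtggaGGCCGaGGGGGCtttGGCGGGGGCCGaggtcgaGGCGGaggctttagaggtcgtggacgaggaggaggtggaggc
NOP56: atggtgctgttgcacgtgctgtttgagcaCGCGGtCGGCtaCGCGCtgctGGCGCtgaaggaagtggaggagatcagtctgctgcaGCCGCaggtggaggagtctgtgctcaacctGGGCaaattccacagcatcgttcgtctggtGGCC
NOP58: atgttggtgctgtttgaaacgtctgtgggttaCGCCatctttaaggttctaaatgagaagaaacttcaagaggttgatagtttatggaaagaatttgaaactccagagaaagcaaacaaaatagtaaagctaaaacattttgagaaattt
DDX21: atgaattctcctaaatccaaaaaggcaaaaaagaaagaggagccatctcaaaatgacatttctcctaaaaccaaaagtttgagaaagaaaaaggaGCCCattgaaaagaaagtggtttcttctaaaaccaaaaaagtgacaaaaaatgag
These stretches hold 8 such runs in FBL and 7 in NOP56, but 1 in NOP58 and 1 in DDX21, while runs of 4 or more A or T number 1 in FBL, 1 in NOP56, 9 in NOP58 and 13 in DDX21. Their GC content is 68.7% in FBL, 60.7% in NOP56, 33.3% in NOP58 and 32.7% in DDX21, further apart than in the whole transcripts. Such a stretch need not follow its transcript. In WDR43, with 40.3% GC in the transcript and a KMS28BM ratio of 1.02, it has 68.7% GC, 10 runs of G or C and 0 of A or T.

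The box H/ACA proteins are the core of the particles that guide pseudouridylation, and they also stabilise telomerase RNA. All 4 had ratios above 0 in H929. DKC1, dyskerin, the pseudouridine synthase, was at 13.6 FPKM after and 10.05 FPKM before sorting in H929 and 21.2 FPKM after and 12.8 FPKM before sorting in KMS28BM, ratios of 0.41 in H929 and 0.68 in KMS28BM. GAR1 was at 16.5 FPKM after and 13.2 FPKM before sorting in H929 and 14.4 FPKM after and 10.1 FPKM before sorting in KMS28BM. The pair was therefore higher after sorting in both lines. NHP2 was at 172 FPKM after and 110.0 FPKM before sorting in H929 and 140.3 FPKM after and 177 FPKM before sorting in KMS28BM, ratios of 0.64 in H929 and -0.34 in KMS28BM. NOP10, the smallest of the 4 proteins, was at 148 FPKM after and 109.5 FPKM before sorting in H929 and 277 FPKM after and 289 FPKM before sorting in KMS28BM. NOP10 and NHP2 transcripts stood roughly an order of magnitude above those of DKC1 and GAR1 on the FPKM scale in each library.

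Among abundant nucleolar proteins, all 4 members were higher after sorting in KMS28BM, and 3 of the 4 were lower after sorting in H929. DDX21 (ENSG00000165732), an RNA helicase of polymerase I transcription and ribosomal RNA processing, was at 8.46 FPKM after and 12.8 FPKM before sorting in H929, a ratio of -0.54. In KMS28BM it was at 34.4 FPKM after and 10.4 FPKM before sorting, a ratio of 1.64, the highest of all members. NCL (ENSG00000115053), nucleolin, a chaperone of the precursor RNA, was at 41.4 FPKM after and 47.3 FPKM before sorting in H929 and 127 FPKM after and 61.2 FPKM before sorting in KMS28BM, ratios of -0.19 in H929 and 1.05 in KMS28BM. NPM1, nucleophosmin, which organises the granular part of the nucleolus, was at 108 FPKM after and 152 FPKM before sorting in H929 and 232 FPKM after and 123 FPKM before sorting in KMS28BM. Its ratios were -0.49 in H929 and 0.91 in KMS28BM. NPM1 shares 18.9% of its words with other genes, and its pseudogene NPM1P27 was listed at 24.7 FPKM after and 36.6 FPKM before sorting in H929 and 68.2 FPKM after and 30.9 FPKM before in KMS28BM, so their reads may be split. NOLC1 (ENSG00000166197), also called Nopp140, a chaperone of small nucleolar particles, was the exception. It stood at 37.7 FPKM after and 19.9 FPKM before sorting in H929 and 88.9 FPKM after and 41.4 FPKM before sorting in KMS28BM, ratios of 0.89 in H929 and 1.08 in KMS28BM, and shares none of its words with another gene. Summed over the 4 genes, levels were 196 FPKM after and 232 FPKM before sorting in H929, and 483 FPKM after and 236 FPKM before in KMS28BM.

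Early small subunit assembly begins with a group of proteins, called UtpA in yeast, that bind the precursor first and also aid its transcription. WDR43 was at 8.24 FPKM after and 12.7 FPKM before sorting in H929 and 26.4 FPKM after and 12.5 FPKM before sorting in KMS28BM, ratios of -0.57 in H929 and 1.02 in KMS28BM. HEATR1, the human counterpart of yeast Utp10, was at 2.98 FPKM after and 3.498 FPKM before sorting in H929 and 2.64 FPKM after and 1.22 FPKM before sorting in KMS28BM. UTP15 was at 1.304 FPKM after and 1.41 FPKM before sorting in H929 and 2.31 FPKM after and 0.855 FPKM before sorting in KMS28BM. All of these, and WDR75 at 3.38 FPKM after and 4.58 FPKM before sorting in H929 and 1.87 FPKM after and 0.842 FPKM before sorting in KMS28BM, were lower after sorting in H929 and higher after sorting in KMS28BM. UTP4, also known as cirhin, was higher after sorting in both, at 18.4 FPKM after and 14.4 FPKM before sorting in H929 and 6.91 FPKM after and 6.27 FPKM before sorting in KMS28BM.

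The remaining processome members split by line as well. RRP9, a protein of the U3 particle, was at 47.3 FPKM after and 25.98 FPKM before sorting in H929 and 27.4 FPKM after and 36.6 FPKM before sorting in KMS28BM, ratios of 0.84 in H929 and -0.41 in KMS28BM. IMP3, which bridges U3 and the precursor together with MPHOSPH10 and IMP4, had the lowest KMS28BM ratio of all measured members. It was at 30.9 FPKM after and 24.98 FPKM before sorting in H929 and 32.5 FPKM after and 46.2 FPKM before sorting in KMS28BM, ratios of 0.30 in H929 and -0.49 in KMS28BM. IMP4 was at 23.7 FPKM after and 14.2 FPKM before sorting in H929 and 14.9 FPKM after and 16.8 FPKM before sorting in KMS28BM. MPHOSPH10 was among the lowest members and went the other way, at 0.562 FPKM after and 1.27 FPKM before sorting in H929 and 4.99 FPKM after and 2.05 FPKM before sorting in KMS28BM. The 3 partners of this bridge were thus not ordered alike in either line. NOP14, which joins the processome in complex with EMG1 in yeast, was at 29.6 FPKM after and 21.5 FPKM before sorting in H929 and 30.8 FPKM after and 25.6 FPKM before sorting in KMS28BM. NAT10, the acetyltransferase of the small subunit RNA, was at 16.7 FPKM after and 12.7 FPKM before sorting in H929 and 17.6 FPKM after and 15.1 FPKM before sorting in KMS28BM. EMG1, a methyltransferase of the same RNA, was at 9.905 FPKM after and 8.33 FPKM before sorting in H929 and 4.62 FPKM after and 5.36 FPKM before sorting in KMS28BM. NOP14 and NAT10 were thus higher after sorting in both lines, and EMG1 in H929.

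Among late small subunit factors, 4 of the 5 stood higher after sorting in H929. BYSL, bystin, which stays with the pre-subunit until export, was at 26.9 FPKM after and 15.9 FPKM before sorting in H929 and 31.2 FPKM after and 27.7 FPKM before sorting in KMS28BM, ratios of 0.72 in H929 and 0.17 in KMS28BM. RRP12, an export factor, was at 11.7 FPKM after and 5.93 FPKM before sorting in H929 and 11.3 FPKM after and 11.4 FPKM before sorting in KMS28BM. LTV1, also an export factor, differed in the opposite sense between lines, at 4.36 FPKM after and 6.88 FPKM before sorting in H929 and 7.55 FPKM after and 2.704 FPKM before sorting in KMS28BM, ratios of -0.56 in H929 and 1.21 in KMS28BM. LTV1 shares 30.4% of its words with other genes, foremost AL049844.3. That gene was listed at 0.622 FPKM after and 1.04 FPKM before sorting in H929 and 0.563 FPKM after and 0.233 FPKM before in KMS28BM, so their reads may be split. NOB1, the nuclease that makes the mature end of the small subunit RNA, was at 47.7 FPKM after and 37.7 FPKM before sorting in H929 and 22.3 FPKM after and 22.1 FPKM before sorting in KMS28BM. TSR1, a GTPase-like late factor, was higher after sorting in both lines, at 18.9 FPKM after and 15.4 FPKM before sorting in H929 and 13.2 FPKM after and 9.297 FPKM before sorting in KMS28BM.

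Large subunit assembly includes the PeBoW complex of PES1, BOP1 and WDR12, which is needed for cutting within the large subunit precursor. BOP1 was at 38.6 FPKM after and 27.9 FPKM before sorting in H929 and 49.3 FPKM after and 67.1 FPKM before sorting in KMS28BM, ratios of 0.46 in H929 and -0.44 in KMS28BM. PES1 was at 27.4 FPKM after and 18.4 FPKM before sorting in H929 and 21.5 FPKM after and 21.4 FPKM before sorting in KMS28BM. WDR12 had the lowest level of the 3 in each library, at 3.83 FPKM after and 3.61 FPKM before sorting in H929 and 5.92 FPKM after and 3.97 FPKM before sorting in KMS28BM. The 3 partners had ratios between 0.07 and 0.55 in H929 and between -0.44 and 0.48 in KMS28BM.

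Other large subunit factors contained 2 of the members past 2-fold in KMS28BM. DDX18, an RNA helicase, was at 2.54 FPKM after and 5.09 FPKM before sorting in H929 and 5.17 FPKM after and 1.64 FPKM before sorting in KMS28BM, ratios of -0.78 in H929 and 1.22 in KMS28BM. GNL2, a nucleolar GTPase, was at 4.94 FPKM after and 6.22 FPKM before sorting in H929 and 15.5 FPKM after and 6.46 FPKM before sorting in KMS28BM, ratios of -0.28 in H929 and 1.15 in KMS28BM. Its relative GNL3, nucleostemin, was at 13.2 FPKM after and 15.7 FPKM before sorting in H929 and 25.8 FPKM after and 13.1 FPKM before sorting in KMS28BM. All 3 were lower after sorting in H929. MRTO4, a placeholder for the ribosomal stalk, was at 40.1 FPKM after and 21.9 FPKM before sorting in H929 and 65.1 FPKM after and 79.1 FPKM before sorting in KMS28BM, ratios of 0.84 in H929 and -0.28 in KMS28BM. NOP16 had the highest H929 ratio among the measured members, at 32.6 FPKM after and 16.5 FPKM before sorting in H929 and 29.8 FPKM after and 34.1 FPKM before sorting in KMS28BM. EBNA1BP2 was higher after sorting in both lines, at 24.5 FPKM after and 13.3 FPKM before sorting in H929 and 51.5 FPKM after and 48.4 FPKM before sorting in KMS28BM. RRP1 was at 26.8 FPKM after and 16.7 FPKM before sorting in H929 and 17.2 FPKM after and 20.9 FPKM before sorting in KMS28BM. NOP2, a methyltransferase of the large subunit RNA, was at 23.4 FPKM after and 14.7 FPKM before sorting in H929 and 10.04 FPKM after and 9.61 FPKM before sorting in KMS28BM, with 49.3% of its words shared, chiefly with a gene model listed at the 0.0001 FPKM floor in each library. RRS1, which brings the 5S particle to the large subunit, was at 30.3 FPKM after and 24.98 FPKM before sorting in H929 and 21.6 FPKM after and 18.9 FPKM before sorting in KMS28BM. NIP7 was at 7.38 FPKM after and 4.67 FPKM before sorting in H929 and 4.48 FPKM after and 3.91 FPKM before sorting in KMS28BM, so both stood higher after sorting in each line.

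Base composition moved with these differences. GC content of the members ran between 38.7% in UTP15 and 65.2% in BOP1. Across the 45 members, the ratio and the GC content had a Spearman rho of 0.74 in H929 and -0.82 in KMS28BM, beside 0.54 over 9262 and -0.75 over 8922 protein-coding genes. The points share 2 libraries in each line, so this is a description. A median GC content of 50.3% over protein-coding genes measured in both lines divided the members into 23 below and 22 at or above it. Those below had median ratios of -0.18 in H929 and 0.83 in KMS28BM, where protein-coding genes on that side had -0.32 in H929 and 0.46 in KMS28BM. Those at or above had medians of 0.52 in H929 and -0.0042 in KMS28BM, where protein-coding genes had 0.15 in H929 and -0.15 in KMS28BM. In H929 all 22 GC-rich members and 9 of the 23 others had a ratio above 0, and in KMS28BM 11 of the 22 and 22 of the 23 did. Over all genes, whatever their GC content, 41.7% were above 0 in H929 and 59.4% in KMS28BM. That share was not counted on each side of the GC median, where the medians of protein-coding genes had the same signs as those of the members. What part composition had in the differences of single genes was not tested.

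**Figure D3:**
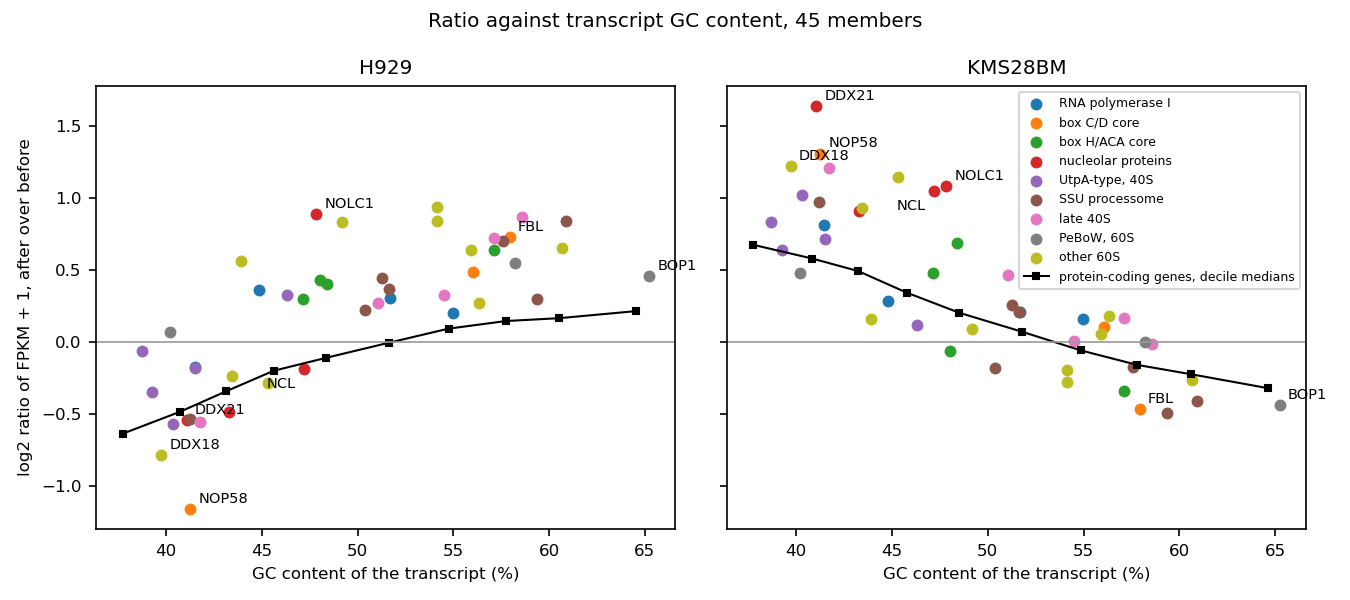
Log2 ratio of FPKM plus 1, after over before sorting, against the GC content of the transcript in percent, for the 45 measured members in H929 (left panel) and KMS28BM (right panel); points are genes coloured by role, and squares joined by a line are medians of protein-coding genes in 10 bins of about equal gene number. The line climbs with GC content in H929 and descends in KMS28BM, with NOLC1 well above it in both panels and NOP58 below it in H929.

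For each line, ratios were regressed on cubic terms of GC content and of log2 length over all protein-coding genes, a trend that took up 30.5% of the variance in H929 and 51.0% in KMS28BM. With it removed, the members' medians were 0.39 in H929 and 0.11 in KMS28BM, beside -0.0059 in H929 and 0.0054 in KMS28BM over all genes. Ratios were then above 0 for 36 of 45 members in H929 (49.4% of genes) and for 32 of 45 in KMS28BM (50.8% of genes). Above 0 in both lines were 23 members, against 21.6% of genes. In H929 1 member was then 2-fold or more higher (2.37% of genes) and 0 were lower (2.29%), and in KMS28BM 1 was higher (1.16%) and 0 were lower (1.25%). NOLC1 was the member in H929, at 1.08, and stood at 0.76 in KMS28BM. DDX21 was the member in KMS28BM, at 1.02, and stood at -0.036 in H929. NOP58 was at -0.85 in H929 and 0.84 in KMS28BM, so its opposite order in the lines was smaller but still there. The other members that had been past 2-fold in KMS28BM came there to 0.81 for GNL2, 0.78 for LTV1, 0.69 for NCL, 0.59 for DDX18 and 0.42 for WDR43. In H929 they came to -0.11 for GNL2, -0.29 for LTV1, 0.033 for NCL, -0.27 for DDX18 and -0.10 for WDR43. With the trend removed, 5 members that had been below 0 in H929 were above it, with 0.54 for UTP15, 0.39 for HEATR1, 0.26 for RRN3, 0.10 for WDR75 and 0.033 for NCL. Across the 45 members the lines' ratios still had a Spearman rho of -0.58, against -0.26 over protein-coding genes. The members' trend-removed ratios also kept a Spearman rho with GC content of 0.30 in H929 and -0.40 in KMS28BM. The fit over all protein-coding genes thus did not take out the whole relation to composition among the members.

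**Figure D4:**
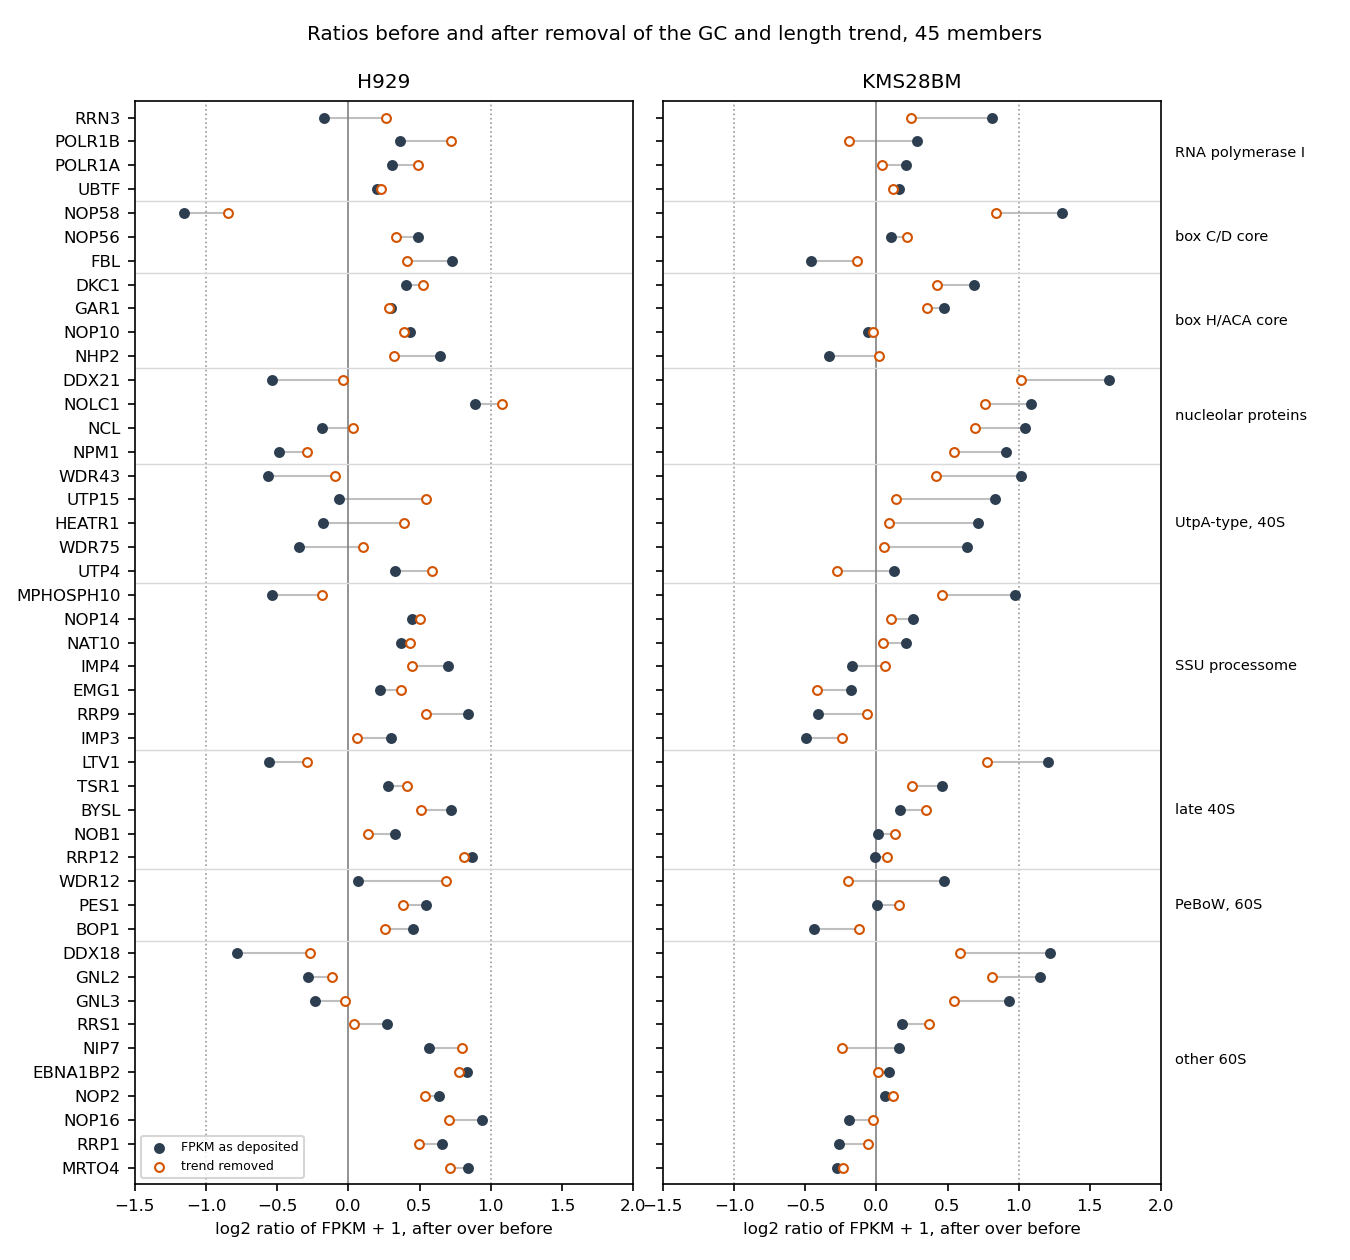
Log2 ratio of FPKM plus 1, after over before sorting, of the 45 measured members in H929 (left panel) and KMS28BM (right panel), from FPKM as deposited (filled) and with the trend in GC content and length removed (open); solid vertical lines mark 0, dotted ones 2-fold. Most open points lie nearer to 0 than the filled points in KMS28BM, and in H929 the 5 members UTP15, HEATR1, RRN3, WDR75 and NCL cross to the right of 0 while NOP58 stays at the left end.

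The authors' deposited table marked 2 members as significant in KMS28BM, DDX21 with a deposited p-value of 0.0212 and DDX18 with 0.0289, both up, against 3.2% of measured genes so marked. Their deposited q-values were 0.940 and 0.989. The authors' deposited table for H929 marked 0 members, against 1.43% of measured genes up and 5.12% down. There NOP58 had the lowest deposited p-value of the members, 0.0748, with a q-value of 0.734.

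Between the lines the values are set side by side with no test, since it is not given whether the 2 tables were scaled together. Over the 45 members measured in both lines, the mean level of a line's 2 libraries was lower in H929 than in KMS28BM for 27, against 47.1% of genes. On the scale of log2 of FPKM plus 1 it was 2-fold or more lower for 8, against 7.96% of genes, led by NOP56 with a level difference of -1.51, EBNA1BP2 with -1.36 and MPHOSPH10 with -1.24. It was 2-fold or more higher for 2, against 11.1% of genes, UTP4 with 1.20 and WDR75 with 1.08.

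Promoters were searched for motifs, and 19 of the 39 members with an entry in the RefSeq promoter table (build GRCh38.p14) hold CACGTG, the palindromic E-box bound by MYC and related factors. The window runs 250 bases before to 50 after the annotated start, and 8.77% of the 27305 symbols in the table hold the motif in a window of that length. On a wider list of ribosome biogenesis genes, described at the end, 27 of 108 hold it. The letters CCGGAAG, an ETS-type motif, were found on either strand in 14 of the 39 members and 48 of the 108 genes of the wider list (12.2% of symbols), and the NRF1 palindrome in 2 of the 39 and 5 of the 108 (1.52%). To show such promoters beside the ratios, the windows of DDX21, WDR43, GNL2 and LTV1 are given, which were 2-fold or more higher after sorting in KMS28BM, with that of FBL, which was lower there. The E-box is in capitals.
DDX21, chr10:68956397-68956696, plus strand: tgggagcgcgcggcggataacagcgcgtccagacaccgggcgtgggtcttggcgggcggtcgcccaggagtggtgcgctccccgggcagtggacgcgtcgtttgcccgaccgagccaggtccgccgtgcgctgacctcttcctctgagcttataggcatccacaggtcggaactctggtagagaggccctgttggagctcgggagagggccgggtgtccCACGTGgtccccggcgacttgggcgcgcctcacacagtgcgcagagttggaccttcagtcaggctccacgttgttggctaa
WDR43, chr2:28894417-28894716, plus strand: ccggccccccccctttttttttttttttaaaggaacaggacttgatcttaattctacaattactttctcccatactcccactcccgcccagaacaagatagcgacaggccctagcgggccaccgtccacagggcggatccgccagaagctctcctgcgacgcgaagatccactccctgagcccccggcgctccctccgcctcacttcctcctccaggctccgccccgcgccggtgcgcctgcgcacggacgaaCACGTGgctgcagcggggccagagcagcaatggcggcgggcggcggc
GNL2, chr1:37595888-37596187, minus strand: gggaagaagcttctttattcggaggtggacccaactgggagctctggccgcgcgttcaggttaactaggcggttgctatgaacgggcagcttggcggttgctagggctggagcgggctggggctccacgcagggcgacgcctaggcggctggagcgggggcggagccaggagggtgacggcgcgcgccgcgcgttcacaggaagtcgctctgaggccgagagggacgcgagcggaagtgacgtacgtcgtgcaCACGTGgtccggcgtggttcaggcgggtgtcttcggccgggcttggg
LTV1, chr6:143843088-143843387, plus strand: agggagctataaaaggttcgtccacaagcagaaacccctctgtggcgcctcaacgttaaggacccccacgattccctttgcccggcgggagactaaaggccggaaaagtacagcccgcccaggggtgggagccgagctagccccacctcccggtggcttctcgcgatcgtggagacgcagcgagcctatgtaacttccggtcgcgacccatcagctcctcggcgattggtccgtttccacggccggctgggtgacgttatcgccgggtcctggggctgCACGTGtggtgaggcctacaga
FBL, chr19:39846330-39846629, minus strand: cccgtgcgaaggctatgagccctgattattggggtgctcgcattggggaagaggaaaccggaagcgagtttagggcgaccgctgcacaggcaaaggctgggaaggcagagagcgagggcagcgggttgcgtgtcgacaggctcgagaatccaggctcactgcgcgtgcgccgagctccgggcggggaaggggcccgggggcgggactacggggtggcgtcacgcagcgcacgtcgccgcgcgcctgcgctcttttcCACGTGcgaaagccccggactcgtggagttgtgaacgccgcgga
DDX21 has 2 windows in the table, and the other holds no CACGTG. The 18 measured members with the motif had median ratios of 0.44 in H929 and 0.14 in KMS28BM, and the 20 without it 0.29 in H929 and 0.25 in KMS28BM. Of those with the motif 4 were 2-fold or more higher in KMS28BM, the 4 shown, and of those without it 1 was, NCL, against 4.13% of all genes. NOP58, NOLC1 and DDX18 were also 2-fold or more higher there but had no promoter entry, so they are outside this split. A link between motif and ratio was not tested. The table was matched by symbol for 39 members, and NOP58, NOLC1, DDX18, MPHOSPH10, RRP12, RRS1 and BOP1 were not matched.

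Most members carry nucleolar annotation. Of the 44 members whose Gene Ontology terms were used here, 42 carry the term nucleolus and 31 carry rRNA processing. Of the 8157 genes measured in both lines and used for this count, 6.52% carry nucleolus and 1.74% carry rRNA processing. The members were chosen as ribosome biogenesis factors, so their shares follow from that choice. Small nucleolar RNA genes lie within the span, on the same strand, of 7 members, NOP56, NOP58, NCL, DKC1, GNL3, WDR43 and TSR1. Their listed levels were low beside their hosts, with a highest value of 3.21 FPKM for SNORA75 within NCL in the KMS28BM library after sorting. The libraries were made from polyadenylated RNA, per the labels, and small nucleolar RNAs carry no poly(A) tail.

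A wider list of ribosome biogenesis genes, written from background knowledge and listed by role in the pathway, was counted in the same way. Past 2-fold in H929 were 2 higher and 2 lower of 122 measured genes, against 1.59% and 5.17% of all genes, with 69 above 0, or 56.6% against 41.7%, and a median of 0.05. Past 2-fold in KMS28BM were 6 higher and 0 lower of 123, against 4.13% and 1.12%, with 82 above 0, or 66.7% against 59.4%, and a median of 0.29. With the trend removed, 87 of 122 were above 0 in H929 (49.4% of all genes), with a median of 0.20 and 2 higher at 2-fold (2.37%). In KMS28BM 62 of 123 were above 0 (50.8% of all genes), with a median of 0.0032 and 0 higher at 2-fold (1.16%). In limma, 0 of the 124 genes in the shared fit passed an adjusted p of 0.05, beside 0.0488% of all genes that rose and 0.0651% that fell. At an unadjusted p under 0.05 there were also 0, beside 0.724% and 0.773%. The highest mean ratios over the lines belonged to SENP3, PPAN and PAK1IP1. SENP3, a SUMO protease of large subunit assembly, was at 23.5 FPKM after and 5.76 FPKM before sorting in H929 and 24.3 FPKM after and 29.1 FPKM before sorting in KMS28BM. PPAN was at 19.1 FPKM after and 6.59 FPKM before sorting in H929 and 20.02 FPKM after and 17.8 FPKM before sorting in KMS28BM. Both are uncertain, with 37.4% and 54.5% of their words shared, mostly with read-through models. PAK1IP1 was at 3.44 FPKM after and 4.28 FPKM before sorting in H929 and 20.6 FPKM after and 8.23 FPKM before sorting in KMS28BM. At the low end stood NOP53, at 62.4 FPKM after and 62.8 FPKM before sorting in H929 and 40.7 FPKM after and 59.01 FPKM before sorting in KMS28BM. BUD23 was at 23.3 FPKM after and 21.2 FPKM before sorting in H929 and 22.1 FPKM after and 32.1 FPKM before sorting in KMS28BM. WDR18 was at 29.98 FPKM after and 25.6 FPKM before sorting in H929 and 33.8 FPKM after and 50.4 FPKM before sorting in KMS28BM. These 3 had KMS28BM ratios between -0.56 and -0.52. SBDS, which helps free the large subunit for translation and is mutated in Shwachman-Diamond syndrome, was 2-fold or more lower after sorting in H929 and 2-fold or more higher after sorting in KMS28BM. Its levels were 10.6 FPKM after and 23.04 FPKM before sorting in H929 and 34.6 FPKM after and 16.4 FPKM before sorting in KMS28BM. With the GC and length trend removed its ratios were -0.82 in H929 and 0.65 in KMS28BM, past 2-fold in neither line. SBDS shares 11.8% of its words with SBDSP1.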

How the data were processed

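RNA-seq of polyadenylated RNA was made from 4 samples of the myeloma lines H929 and KMS28BM, per the labels' protocols, with 1 library for each line and sorting state. The deposited tables, 1 for each line, hold FPKM per gene, the authors' fold ratio and log2 fold change, and p-values and q-values. The submitters' processing notes name Bowtie 0.12.2, HISAT2 2.0 and StringTie 1.3.0. They name mm8, a mouse build, while the tables hold human genes, and no source used here gives the human build. No source says if the tables were scaled together.

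Ratios were computed as log2 of FPKM plus 1, after over before sorting, over genes that reached 1 FPKM in a library of the line. A difference shared by both lines was fitted with limma 3.58.1 in R 4.3.3, with line and sorting as terms, 1 residual degree of freedom, trended moderation of the spread, and p-values adjusted by Benjamini-Hochberg over 12294 genes. The lines serve as the only replicates. With moderation, the spread behind each p-value comes largely from other genes, and little from the gene's own difference between the 2 lines. UBTF, with ratios of 0.20 in H929 and 0.16 in KMS28BM, had an SE of 0.39. NOP58, with ratios of -1.16 in H929 and 1.31 in KMS28BM, had an SE of 0.45. Limma and the trend removal were run on simulated data with independent noise and known changes. The libraries simulated for limma had the same changes in both lines and, unlike these data, no trend with GC content. They therefore do not measure how limma performs here. Depth was estimated from the piling up of low FPKM values at what whole fragments are worth, so it is approximate. GC content and words of 50 bases shared between genes came from GENCODE release 29, where 58394 gene IDs matched. Coding stretches came from that annotation and promoters from the RefSeq table of build GRCh38.p14.

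All 46 members are accounted for by role. Full values were due for members at 2-fold, for the highest and lowest of each role and, on the wider list, for the 3 highest and 3 lowest mean ratios and any past the limma threshold. SBDS was given outside this rule. Some other genes of the wider list past 2-fold, such as RSL24D1 with a ratio of -1.11 in H929, were not listed. The members and lists were chosen with earlier results of these data known. Alternatives were other pseudocounts, filters, scalings, fold thresholds, removal of the GC and length trend, and leaving out a line.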

Additional observations from a re-analysis of the deposited data

Results flagged for a closer look

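For 7 members the ratio was below 0 in H929 and 1 or more in KMS28BM on the log2 scale, so that the 2 lines went opposite ways, against 3.38% of all genes measured in both lines. The difference was not tested, since each group has 1 library. The H929 ratio minus the KMS28BM ratio was -2.47 for NOP58, -2.18 for DDX21, -2.01 for DDX18 and -1.76 for LTV1. It was -1.59 for WDR43, -1.43 for GNL2 and -1.23 for NCL. With the GC and length trend removed, 1 of the 7, DDX21, still met the same bounds, and NCL was above 0 in both lines. The differences were then -1.69 for NOP58, -1.05 for DDX21, -0.86 for DDX18, -1.06 for LTV1, -0.51 for WDR43, -0.92 for GNL2 and -0.66 for NCL. All 7 lie below the median GC content of protein-coding genes, and the part of base composition was not tested gene by gene.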

How the results depend on the processing

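Counts of members past 2-fold depended on the setting, as did those of all genes. In H929, where 1 member was lower and 0 were higher (573 and 176 of all genes), a pseudocount of 0.1 FPKM gave 2 lower (1515 of all genes) and a pseudocount of 5 FPKM gave 0 (79). Trimmed-mean scaling gave 6 higher and 0 lower (376 and 328 of all genes), and removal of the GC and length trend gave 1 higher and 0 lower (262 and 253). A 1.5-fold threshold gave 12 higher and 2 lower (820 and 2079), and a 4-fold threshold gave 0 lower (36). In KMS28BM, where 8 were higher (433 of all genes), a pseudocount of 0.1 FPKM gave 12 (1283) and a pseudocount of 5 FPKM gave 3 (58). Trimmed-mean scaling gave 4 there (197), trend removal 1 (121), a 1.5-fold threshold 16 (1928) and a 4-fold threshold 0 (26). Trimmed-mean scaling moved the median of all genes by 0.21 in H929 and -0.19 in KMS28BM, and the members' median to 0.56 in H929 and, with a changed sign, to -0.015 in KMS28BM. Leaving out a line gave medians of the shared difference between 0.21 and 0.33, values with no test. Of the 9 ratios past 2-fold in a line, 3 stayed past it at a pseudocount of 5 FPKM, 4 under trimmed-mean scaling and 1, that of DDX21, with the trend removed. The causes were not tested. The limma fit without a filter was not run, because most residual variances were then 0, and the fit with trimmed-mean scaling was not run either. The genes past the limma threshold, 14 in the main fit, were 0 with each line centred on its median ratio. They were 3 with the trend removed and 24 with a filter of 5 FPKM. The limma fit reported has line as a term, so it compares the libraries within each line, and the labels carry no replicate numbers for a further block. UTP20 rests on about 12 fragments in KMS28BM before sorting, WDR75 there on 48, and MPHOSPH10 in H929 after sorting on 32. With 1 library in each group the counts say nothing of spread between cultures.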
